A study of Mus musculus with 17 samples.

Results

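The 10 genes described here belong to peroxiredoxin, glutathione and thioredoxin defence, with catalase, a superoxide dismutase and a heme oxygenase beside them. They are Prdx1, Prdx2, Srxn1, Txnrd1, Txnrd2, Gpx1, Gclm, Hmox1, Cat and Sod2. Each was read by the probe set, a group of short array probes for 1 transcript, that had the highest mean over all 17 arrays among the probe sets annotated with a single gene symbol. Of the 10 genes, 9 had such a probe set, out of 18193 genes in the whole series, and all 9 were among the 12696 genes kept for testing. Prdx1 had none, because its probe sets also carry a second symbol, and it is not reported. The 9 probe sets lay above their array's median in 17 of 17 arrays, so none of them entered through a single group.

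Blood came from female C57BL/6JJcl mice, an inbred laboratory strain, aged 8 weeks. The 5 control mice received 0 Gy, and 4 mice each received 0.5, 1.0 or 3.0 Gy of X-rays to the whole body. Every mouse was killed under isoflurane 24 h later, and total RNA of its whole blood was hybridised to 1 array. Whole blood mixes red cells, reticulocytes, platelets and leukocytes, and the labels describe no sort, so in these bulk samples fewer cells of a type and less RNA per cell cannot be told apart.

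Hydrogen peroxide in cells is removed mainly by catalase, by peroxiredoxins and by glutathione peroxidases. Peroxiredoxins are re-reduced by thioredoxin, which is kept reduced by thioredoxin reductases at the cost of NADPH, and sulfiredoxin repairs peroxiredoxins that peroxide has over-oxidised. Glutathione peroxidases draw on glutathione, whose synthesis starts at glutamate-cysteine ligase. Red cells are known for very high levels of peroxiredoxin 2, glutathione peroxidase 1 and catalase, and several genes of this defence, among them Srxn1, Txnrd1, Gclm and Hmox1, are textbook targets of the transcription factor NRF2, which binds the antioxidant response element.

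The promoters of 3 genes are shown because Srxn1 is the gene that rose at every dose and Prdx2 and Txnrd2 are the genes with the largest falls at 0.5 and 1.0 Gy. Each window is 300 bases of the plus strand, from 250 bases before to 50 after the RefSeq start site on GRCm38.p6, and 4 motifs were searched on both strands: TGACNNNGC (antioxidant response element core), TGANTCA (AP-1, which can overlap the former), AGATAA, the site of GATA factors, and its shorter form GATAA, which every match of the longer form contains. Capitals mark matches to TGACNNNGC and TGANTCA only. The search found no AGATAA or GATAA in the windows shown. The Srxn1 window is chr2:152105274-152105573, that of Prdx2 is chr8:84969372-84969671 and that of Txnrd2 is chr16:18426167-18426466.
Srxn1: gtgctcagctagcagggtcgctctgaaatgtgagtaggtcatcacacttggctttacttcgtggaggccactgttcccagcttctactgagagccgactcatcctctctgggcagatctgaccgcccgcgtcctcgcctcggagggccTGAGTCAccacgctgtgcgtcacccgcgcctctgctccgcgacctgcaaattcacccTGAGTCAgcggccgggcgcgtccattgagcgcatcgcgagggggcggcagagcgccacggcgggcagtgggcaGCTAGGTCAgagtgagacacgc
Prdx2: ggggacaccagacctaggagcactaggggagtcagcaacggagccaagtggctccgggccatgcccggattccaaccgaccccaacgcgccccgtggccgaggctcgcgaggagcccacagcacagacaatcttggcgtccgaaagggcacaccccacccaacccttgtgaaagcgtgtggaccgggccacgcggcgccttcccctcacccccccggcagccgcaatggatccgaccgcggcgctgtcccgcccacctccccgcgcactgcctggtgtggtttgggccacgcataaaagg
Txnrd2: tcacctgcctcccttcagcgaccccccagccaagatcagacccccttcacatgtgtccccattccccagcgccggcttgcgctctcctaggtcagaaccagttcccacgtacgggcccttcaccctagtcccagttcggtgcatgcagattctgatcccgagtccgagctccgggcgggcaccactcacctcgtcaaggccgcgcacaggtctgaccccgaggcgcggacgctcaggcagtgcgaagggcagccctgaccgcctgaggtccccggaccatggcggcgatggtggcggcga

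The Srxn1 window held the motif TGANTCA at 102 and 45 bases before the start site and TGACNNNGC, read on the minus strand, 28 bases after it. No match to any of the 4 motifs was found in the windows of Prdx2 and Txnrd2. Over all 32851 mouse promoter windows of this length, TGACNNNGC was present in 12.4%, TGANTCA in 7.81%, AGATAA in 11.2% and GATAA in 25.4%. A window was found for 9 of the 10 genes, and Hmox1 had none. Among the other measured genes, the Gclm window and 1 of 3 Txnrd1 windows also held TGACNNNGC, and those of Gpx1, Cat and Sod2 held none of the motifs. A match describes these letters only.

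Over the whole series, 12696 genes were tested, and replicate arrays correlated with a median r of 0.987 within groups and 0.971 between groups, across probe sets that are not independent replicates. The tissue label was checked against marker lists. Platelet markers averaged 9.10 in controls on the log2 scale of the deposited RMA levels and 10.37, 10.79 and 10.91 at 0.5, 1.0 and 3.0 Gy. Of these markers 16 of 16 were called higher at every dose, beside 5.24%, 8.8% and 20% of all genes. Markers of red cells and reticulocytes averaged 7.87, 7.56, 7.24 and 7.11 from control to 3.0 Gy, and B cell markers 7.65, 7.26, 7.32 and 5.18. The red cell genes Hbb-b1 and Hba-a1 are not among the genes kept. Control probe sets for 18S ribosomal RNA averaged 10.52 ± 0.49 (SD, n = 5) in controls, 12.69 ± 0.77 (n = 4) at 0.5 Gy, 13.28 ± 0.28 (n = 4) at 1.0 Gy and 10.68 ± 0.14 (n = 4) at 3.0 Gy, so they were high at the lower doses and near control at the highest.

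Prdx2, Txnrd2 and Gpx1 fell at all 3 doses, Sod2 fell at 1.0 and 3.0 Gy, and Cat and Txnrd1 fell at 3.0 Gy. Srxn1 was the only one of the 9 genes called higher than control, at every dose, except that Hmox1 at 3.0 Gy was also called higher when quantile normalization was repeated on the deposited values (0.29, adjusted p = 0.0260). Gclm did not pass the test at any dose on the probe set used, and Hmox1 passed it against control at none. In numbers, 1 gene was higher and 3 lower at 0.5 Gy, 1 higher and 4 lower at 1.0 Gy and 1 higher and 6 lower at 3.0 Gy, by limma with an adjusted p under 0.05. Among all 12696 genes 10.2% were called at 0.5 Gy (5.24% higher, 5% lower), 17.3% at 1.0 Gy (8.8% higher, 8.49% lower) and 49.1% at 3.0 Gy (20% higher, 29.2% lower). The median change of the 9 genes was -0.13, -0.25 and -0.63 (log2) at the 3 doses, against -0.02, -0.04 and 0.04 over all genes. In all 3 comparisons Srxn1 was the gene whose irradiated mice all lay above all controls, beside 6.66%, 7.88% and 14.2% of all genes. Genes whose irradiated mice all lay below all controls numbered 3, 5 and 6, beside 4.54%, 6.38% and 22.9%. An F test over the 3 doses called 8 of 9, all but Gclm, against 48.2% of all genes. The 3 comparisons with control share the same 5 control arrays.

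**Figure D1:**
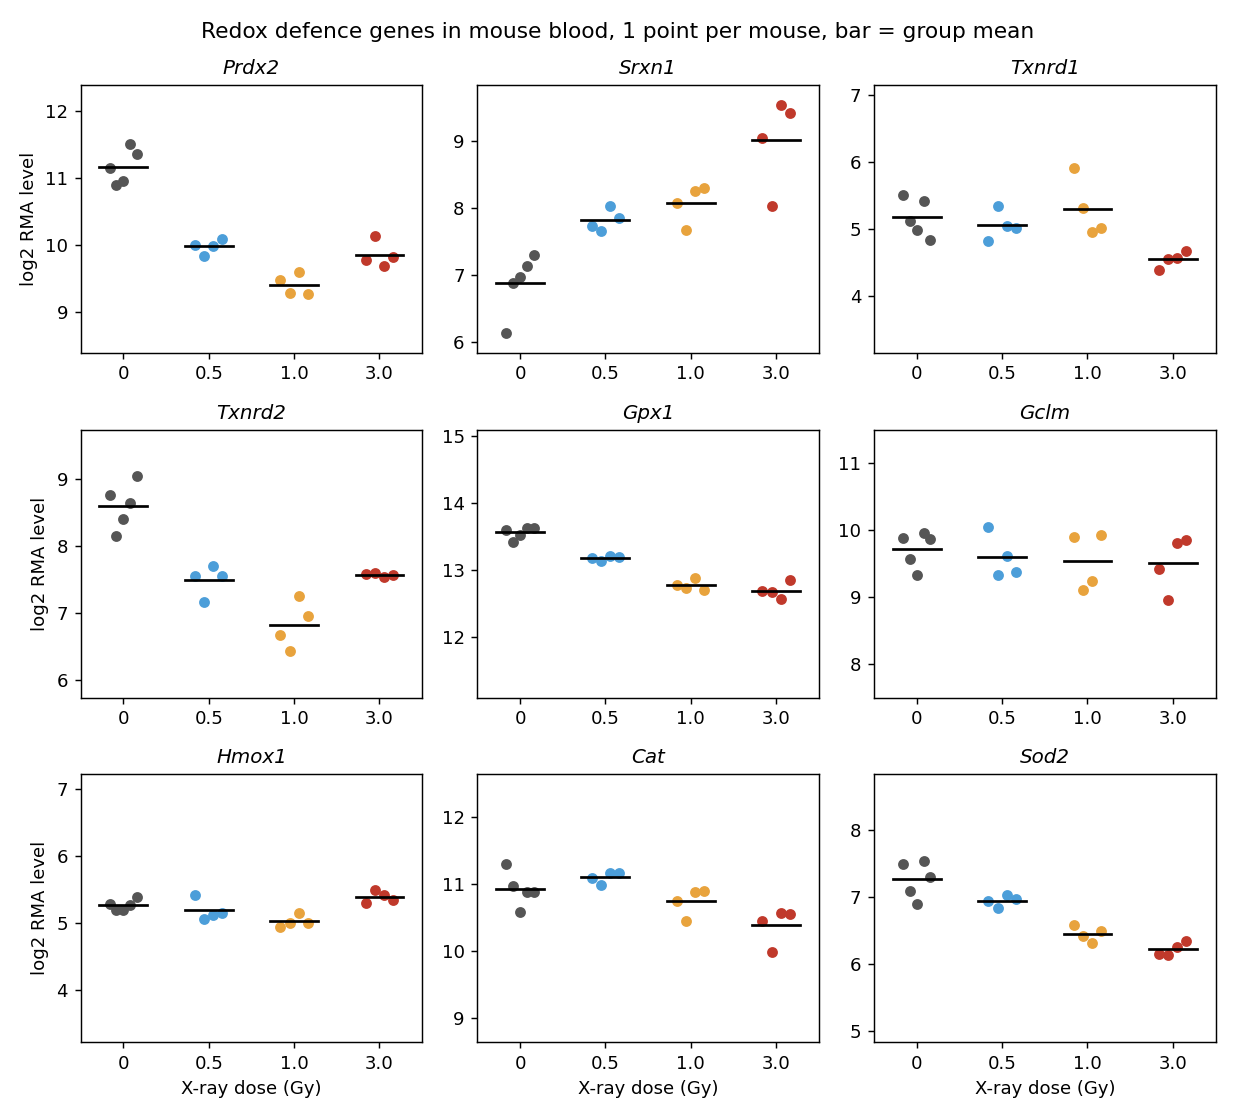
Log2 RMA level (vertical axis, each panel spanning the same range of log2 units) of the 9 measured genes against X-ray dose in Gy (horizontal axis), with 1 point per mouse and a bar at the group mean. All irradiated points of Prdx2, Txnrd2 and Gpx1 lie below the lowest control, and all irradiated points of Srxn1 lie above the highest control.

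Prdx2 encodes the cytosolic peroxiredoxin that is abundant in red cells. Its levels were 11.15, 10.89, 10.96, 11.51 and 11.37 in the 5 controls. They were 10.01, 9.84, 9.99 and 10.09 at 0.5 Gy, 9.48, 9.29, 9.60 and 9.28 at 1.0 Gy, and 9.78, 10.14, 9.69 and 9.82 at 3.0 Gy. No irradiated mouse reached the lowest control, and the 1.0 Gy mice were lower than the mice of both other doses. Relative to control Prdx2 fell by 1.19 ± 0.13 (SE) on the log2 scale at 0.5 Gy (limma adjusted p = 9.66e-06), by 1.76 ± 0.13 at 1.0 Gy (adjusted p = 6.49e-08) and by 1.32 ± 0.13 at 3.0 Gy (adjusted p = 2.28e-07), which is 2.29-fold, 3.40-fold and 2.50-fold lower. Between 1.0 and 3.0 Gy the level was higher at the larger dose by 0.44 ± 0.14 (adjusted p = 0.0188), a call that was lost without 1.0 Gy replicate 2 (adjusted p = 0.0564), 1.0 Gy replicate 4 (0.0560) or 3.0 Gy replicate 2 (0.0593).

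The second Prdx2 probe set, 1430979_a_at, was lower too. Its changes from control were -0.99, -1.36 and -1.45 (log2) at 0.5, 1.0 and 3.0 Gy, each past the threshold in a fit over all 45037 non-control probe sets. Here the 3.0 Gy mice read 6.82, 7.21, 6.79 and 7.24 and the 1.0 Gy mice 6.995, 6.87, 7.28 and 7.27. These groups overlapped, the difference was -0.09 ± 0.19 (SE) with an adjusted p of 0.745, and so the higher level at 3.0 than at 1.0 Gy was seen in 1 of the 2 probe sets.

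Srxn1 encodes sulfiredoxin, which restores over-oxidised peroxiredoxins. Its levels were 6.14, 6.89, 6.97, 7.14 and 7.31 in controls, 7.74, 7.66, 8.03 and 7.86 at 0.5 Gy, 8.09, 7.67, 8.26 and 8.30 at 1.0 Gy, and 9.06, 8.04, 9.54 and 9.43 at 3.0 Gy. The ranges of control and each dose did not overlap, while replicate 2 at 3.0 Gy lay within the range of the 1.0 Gy mice. Srxn1 rose by 0.93 ± 0.26 (log2, SE) at 0.5 Gy (adjusted p = 0.0245), by 1.19 ± 0.26 at 1.0 Gy (adjusted p = 0.00257) and by 2.12 ± 0.26 at 3.0 Gy (adjusted p = 1.82e-06), or 1.91-fold, 2.28-fold and 4.36-fold. The 3.0 Gy level also exceeded that at 1.0 Gy by 0.94 ± 0.27 (adjusted p = 0.0120) and that at 0.5 Gy by 1.19 ± 0.27 (adjusted p = 0.00243), and the 2 lower doses differed by 0.26 (95% interval -0.31 to 0.82).

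The rise at 0.5 Gy on this probe set was not called without control replicate 1 (adjusted p = 0.0673) or without 0.5 Gy replicate 1 (0.0562), 3 (0.0869) or 4 (0.0627). The other Srxn1 probe sets were higher at each dose too. Probe set 1425351_at changed by 1.08, 1.48 and 2.28 and 1426875_s_at by 1.21, 1.61 and 2.34 (log2), all called. The dimmer 1419942_at changed by 0.29 (adjusted p = 0.502), 0.60 and 0.98, with the last 2 called. Platelet markers (16 kept of 18 listed) were higher at the same doses, by 1.27, 1.70 and 1.81 on average. Their mean ranged from 8.78 to 9.31 in controls, 10.23 to 10.46 at 0.5 Gy, 10.64 to 10.996 at 1.0 Gy and 10.52 to 11.21 at 3.0 Gy, and their part in the Srxn1 result was not tested.

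Txnrd2 encodes the mitochondrial thioredoxin reductase and, like Prdx2, had its lowest mean at 1.0 Gy. Levels were 8.76, 8.15, 8.41, 8.65 and 9.05 in controls, 7.55, 7.17, 7.70 and 7.55 at 0.5 Gy, 6.68, 6.43, 7.25 and 6.95 at 1.0 Gy, and 7.58, 7.60, 7.53 and 7.57 at 3.0 Gy. Every irradiated mouse was below every control, and the 1.0 Gy mice were below all 3.0 Gy mice. Txnrd2 fell by 1.11 ± 0.17 (log2, SE) at 0.5 Gy (adjusted p = 0.000258), by 1.77 ± 0.17 at 1.0 Gy (adjusted p = 6.11e-07) and by 1.03 ± 0.17 at 3.0 Gy (adjusted p = 6.30e-05). It was higher at 3.0 than at 1.0 Gy by 0.74 ± 0.18 (adjusted p = 0.00410). Across its other probe sets the falls were 0.85, 1.39 and 0.84 in size for 1429972_s_at, 0.43, 0.64 and 0.61 for 1449097_at and 0.49 (adjusted p = 0.0530), 0.91 and 0.96 for 1451936_a_at. The difference between 3.0 and 1.0 Gy was 0.56 (adjusted p = 0.0140), 0.03 (0.833) and -0.05 (0.802) in these 3, so it was called in 2 of the 4 Txnrd2 probe sets. The mean of the probe sets fell by 0.72 at 0.5 Gy and 1.18 at 1.0 Gy, both still called.

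Txnrd1 encodes the cytosolic reductase. Its levels ranged from 4.83 to 5.51 in controls, 4.82 to 5.34 at 0.5 Gy and 4.96 to 5.91 at 1.0 Gy, and were 4.40, 4.56, 4.57 and 4.67 at 3.0 Gy. All 3.0 Gy mice were below all others. The change was -0.12 ± 0.18 (log2, SE) at 0.5 Gy (adjusted p = 0.777) and 0.12 ± 0.18 at 1.0 Gy (adjusted p = 0.702), and at 3.0 Gy Txnrd1 fell by 0.63 ± 0.18 (adjusted p = 0.00654). It was lower at 3.0 than at 1.0 Gy by a log2 difference of -0.75 ± 0.19 (adjusted p = 0.00451), and lower than at 0.5 Gy by -0.51 ± 0.19 (adjusted p = 0.0424), a call lost when any of 0.5 Gy replicates 2, 3 and 4 or any 3.0 Gy replicate was left out (adjusted p from 0.0553 to 0.140). The other probe sets, 1424486_a_at (above the array median in 11 arrays, changes 0.08, 0.09 and 0.21) and 1424487_x_at (above it in 0), passed the threshold at no dose, and averaging the 3 probe sets ended the 3.0 Gy call (adjusted p = 0.312).

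**Figure D2:**
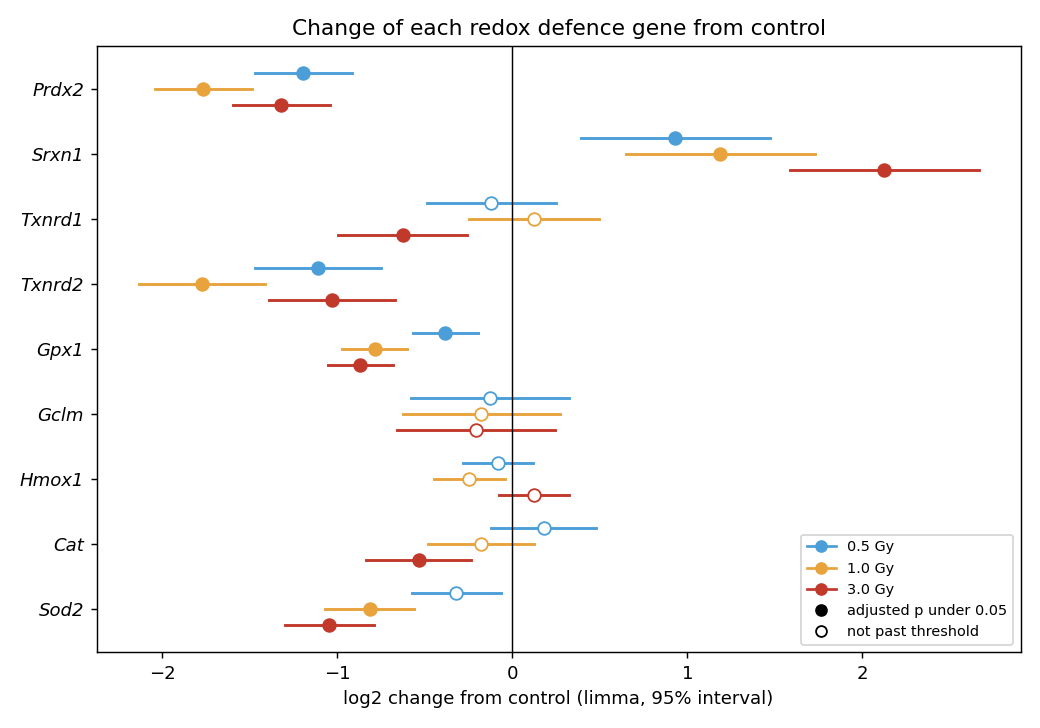
Log2 change from control (horizontal axis) of each gene (vertical axis) at 0.5, 1.0 and 3.0 Gy, with 95% intervals from limma. Filled points passed an adjusted p of 0.05 and open points did not. Prdx2 and Txnrd2 reach their lowest value at 1.0 Gy, at -1.76 and -1.77, Sod2 and Gpx1 at 3.0 Gy, and Srxn1 reaches 2.12 at 3.0 Gy.

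Gpx1, the glutathione peroxidase of the cytosol and a selenoprotein, read 13.60, 13.42, 13.52, 13.63 and 13.63 in controls. At 0.5 Gy it read 13.18, 13.13, 13.20 and 13.20, at 1.0 Gy 12.78, 12.73, 12.88 and 12.71, and at 3.0 Gy 12.69, 12.67, 12.56 and 12.84. The control, 0.5 Gy and 1.0 Gy ranges were separate and descending, and the 1.0 and 3.0 Gy ranges overlapped. Gpx1 fell by 0.38 ± 0.09 (log2, SE; adjusted p = 0.00831), 0.79 ± 0.09 (adjusted p = 2.82e-06) and 0.87 ± 0.09 (adjusted p = 2.71e-07) at the 3 doses, that is 1.30-fold, 1.73-fold and 1.83-fold. These probe intensities are near the top of the scale, and their saturation could not be checked.

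Gclm encodes the modifier subunit of glutamate-cysteine ligase. Its levels overlapped in all groups, from 9.32 to 9.96 in controls, 9.33 to 10.04 at 0.5 Gy, 9.10 to 9.92 at 1.0 Gy and 8.96 to 9.86 at 3.0 Gy. The changes from control were -0.13 (95% interval -0.58 to 0.32), -0.18 (-0.63 to 0.27) and -0.21 (-0.66 to 0.24), with adjusted p of 0.808, 0.644 and 0.429. The second Gclm probe set, 1439050_at, went the other way. It read 6.63, 6.41, 5.28, 5.42 and 5.63 in controls, 6.65, 6.74, 7.01 and 6.74 at 0.5 Gy, 6.66, 6.38, 7.01 and 7.12 at 1.0 Gy and 6.71, 5.98, 6.80 and 6.95 at 3.0 Gy. Among the controls, replicates 1 and 2 were about as high as the irradiated mice. The probe set was called higher by 0.91 ± 0.25 (adjusted p = 0.0436), 0.92 ± 0.25 (adjusted p = 0.0250) and 0.73 ± 0.25 (adjusted p = 0.0326), so no single direction can be given for Gclm. All 3 calls were lost when control 3, 4 or 5 was left out (adjusted p from 0.0610 to 0.129). The 0.5 Gy call was also lost without any single 0.5 Gy mouse (0.0688 to 0.154) and without 1.0 Gy replicate 1 (0.0536) or 3.0 Gy replicate 1 (0.0571). The 1.0 Gy call was lost without replicate 3 (0.0645) or 4 (0.0979) of that dose, and the 3.0 Gy call without replicate 1, 3 or 4 of that dose (0.0732 to 0.103).

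**Figure D3:**
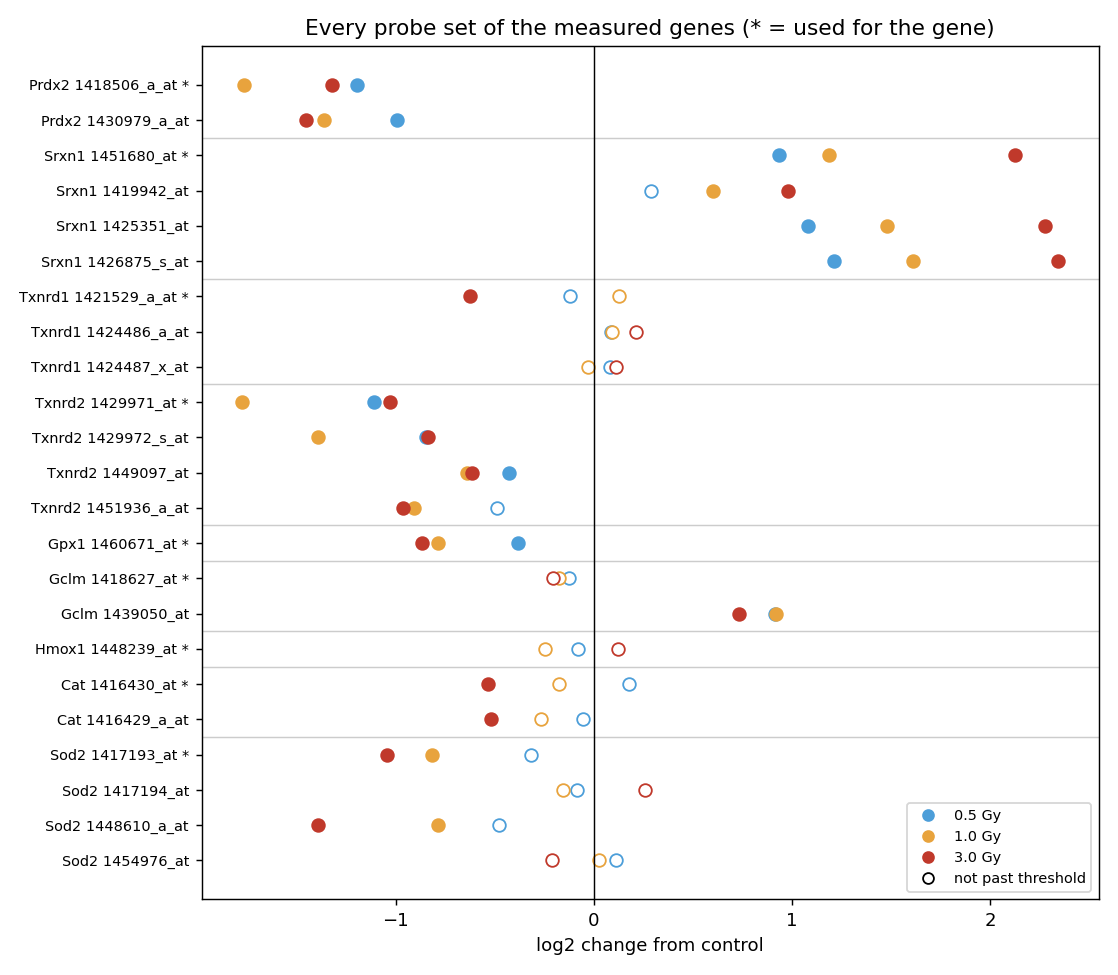
Log2 change from control (horizontal axis) at 0.5, 1.0 and 3.0 Gy for every single-symbol probe set of the 9 genes (vertical axis, an asterisk marking the one used), with open points for changes not past the threshold. The 4 Srxn1 probe sets lie to the right of 0, those of Prdx2 and Txnrd2 lie to the left, and the 2 of Gclm lie on opposite sides.

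Cat encodes catalase, which breaks down hydrogen peroxide without a cofactor that must be re-reduced. Control levels were 11.28, 10.96, 10.57, 10.88 and 10.87, and those at 3.0 Gy were 10.43, 9.98, 10.55 and 10.54. All 3.0 Gy mice were below the lowest control, the highest of them narrowly. The mice at 0.5 Gy (10.98 to 11.15) and 1.0 Gy (10.44 to 10.89) overlapped the controls, with changes of 0.18 ± 0.14 (log2, SE; adjusted p = 0.534) and -0.18 ± 0.14 (adjusted p = 0.456), while at 3.0 Gy Cat fell by 0.54 ± 0.14 (adjusted p = 0.00472). The second Cat probe set, 1416429_a_at, changed by -0.06, -0.27 and -0.52, of which only the last was called. On the probe set used, the 3.0 Gy change was -0.35 both with repeated quantile normalization and with array weights, still called.

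Sod2, the manganese superoxide dismutase of mitochondria, had a lower group mean at each larger dose on the probe set used. The step from 1.0 to 3.0 Gy was not called (-0.23, adjusted p = 0.153). It read 7.49, 7.09, 6.90, 7.53 and 7.30 in controls, 6.94, 6.84, 7.03 and 6.96 at 0.5 Gy, 6.58, 6.41, 6.31 and 6.48 at 1.0 Gy and 6.15, 6.12, 6.25 and 6.34 at 3.0 Gy. Control and 0.5 Gy mice overlapped, and so did 1.0 and 3.0 Gy mice, but no mouse of the 2 higher doses reached the 0.5 Gy range. The change was -0.32 ± 0.12 (log2, SE) at 0.5 Gy (adjusted p = 0.110), and Sod2 fell by 0.81 ± 0.12 at 1.0 Gy (adjusted p = 6.65e-05) and by 1.05 ± 0.12 at 3.0 Gy (adjusted p = 1.10e-06). Probe set 1448610_a_at changed by -0.48 (adjusted p = 0.0580), -0.78 and -1.39. Probe set 1417194_at changed by -0.09, -0.15 and 0.26, and neither it nor 1454976_at, above the array median in 4 arrays, was called against control. Between 3.0 and 1.0 Gy, 1417194_at was called higher at the larger dose (0.41, adjusted p = 0.0334). The mean of the Sod2 probe sets fell by 0.43 at 1.0 Gy and 0.60 at 3.0 Gy, both called.

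Hmox1 encodes the inducible heme oxygenase. Its levels were 5.19 to 5.39 in controls, 5.06 to 5.42 at 0.5 Gy, 4.94 to 5.14 at 1.0 Gy and 5.30 to 5.49 at 3.0 Gy. The 1.0 Gy mice were all below the controls by a change of -0.25 ± 0.10 (log2, SE) that missed the threshold (adjusted p = 0.0900). It passed in the fit on the mean of all probe sets per gene (0.0484). Hmox1 has 1 such probe set, so its own values were the same there and only those of other genes differed. At 3.0 Gy the change was 0.12 ± 0.10 (adjusted p = 0.296). The level was higher at 3.0 than at 1.0 Gy by 0.37 ± 0.10 (adjusted p = 0.00893).

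Setting the doses against each other, 0 of the 9 genes were called between 1.0 and 0.5 Gy, where limma called 0.0158% of all genes. Prdx2 (-0.57, adjusted p = 0.176), Gpx1 (-0.40, adjusted p = 0.130), Sod2 (-0.49, adjusted p = 0.236) and Cat (-0.36, adjusted p = 0.777) were lower in every 1.0 Gy mouse than in every 0.5 Gy mouse, against 1.97% of all genes, and 0 were higher in every 1.0 Gy mouse, against 2.37%. At an unadjusted p under 0.05, 5 of the 9 genes (these 4 and Txnrd2) and 735 of all genes differed, and 4 were called with array weights and 1 with repeated quantile normalization. Between 3.0 and 1.0 Gy, 4 genes were higher (Prdx2, Srxn1, Txnrd2, Hmox1) and 1 lower (Txnrd1), against 15.9% and 22.7% of all genes (38.6% in either direction). The groups lay apart for 3 higher genes (12.4% of all genes) and 1 lower gene (18.3%). Between 3.0 and 0.5 Gy, Srxn1 was higher and Txnrd1, Gpx1, Cat and Sod2 were lower, against 12.9% and 20.9% of all genes (33.8% in either direction). Those 5 were also the genes whose groups lay apart, 1 higher (13.1% of all genes) and 4 lower (20.1%). In that last comparison Gpx1 fell by 0.49, Cat by 0.71 and Sod2 by 0.73, whereas Prdx2 differed by -0.13 (95% interval -0.42 to 0.17) and Txnrd2 by 0.08 (-0.30 to 0.46).

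Markers of several blood cell types differed between the groups. Of 14 red cell and reticulocyte markers kept, of 20 listed, 5, 6 and 9 were called lower at 0.5, 1.0 and 3.0 Gy and 0, 0 and 3 higher, beside 10.2%, 17.3% and 49.1% of all genes called in either direction. The list's mean was taken over all 16 markers with a probe set, whether kept or not. It ranged from 7.61 to 8.20 in controls, 7.37 to 7.65 at 0.5 Gy, 6.98 to 7.43 at 1.0 Gy and 6.98 to 7.26 at 3.0 Gy. Within it, Epb42, Car2, Tspo2, Trim10 and Rhd were called lower at all 3 doses. Car2 changed by -1.01, -1.73 and -2.41, and Epb42 and Trim10 also fell furthest at 3.0 Gy. Tspo2 (-0.76, -1.26 and -0.85) and Rhd (-0.56, -0.68 and -0.51) fell furthest at 1.0 Gy, as Prdx2 and Txnrd2 did on the probe sets used. Slc4a1, the red cell anion exchanger, changed by -0.62 (adjusted p = 0.0940), -1.48 and -2.51. Alas2, the first enzyme of red cell heme synthesis, changed by -0.05, -0.22 and -0.28, the last called. The 3 markers called higher at 3.0 Gy were Klf1 (0.33), Sptb (0.53) and Ank1 (0.58), an erythroid transcription factor and proteins of the red cell membrane skeleton. The list mean overlapped the controls at 0.5 Gy and lay below them at 1.0 and 3.0 Gy, and its part in the falls of Prdx2, Txnrd2, Gpx1, Cat and Sod2 was not tested. At 3.0 Gy 8 of 11 T cell markers and 10 of 11 B cell markers were called lower, beside 29.2% of all genes. The means of these 2 lists differed from control by -1.36 and -2.47 (log2). Of the 14 ribosomal protein genes kept, 13, 14 and 14 were called lower at 0.5, 1.0 and 3.0 Gy, beside 5%, 8.49% and 29.2% of all genes. The mean of that list differed from control by -0.73, -0.81 and -1.61, and its part in the falls at the lower doses was not tested. At 3.0 Gy neutrophil markers were higher by 0.86, with 7 of 9 called higher, beside 20% of all genes. The part of these lists in the falls of Cat and Txnrd1 and the level of Srxn1 at that dose was not tested.

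With the 18S level added to the model as a covariate, the 3.0 Gy calls of all 7 genes remained. The 18S level at 3.0 Gy was near control (10.68 against 10.52), so the covariate could change little there. At the lower doses, where 18S differed from control, the falls of Prdx2 (-1.43 and -2.07) and Txnrd2 (-1.42 and -2.17) were still called at 0.5 and 1.0 Gy, as was that of Gpx1 at 1.0 Gy (-0.87, adjusted p = 0.0392). Those of Gpx1 at 0.5 Gy (-0.45, adjusted p = 0.231) and Sod2 at 1.0 Gy (-0.75, adjusted p = 0.232) and the rises of Srxn1 at 0.5 Gy (0.88, adjusted p = 0.489) and 1.0 Gy (1.12, adjusted p = 0.464) were not. The standard error of the Srxn1 change at 0.5 Gy was 0.56 with the covariate and 0.26 without it. With the covariate, the number of all genes called went from 1300 to 557 at 0.5 Gy and from 2195 to 606 at 1.0 Gy. At both of these doses every 18S level lay above every control (highest control 11.18, lowest at 0.5 Gy 11.76). Dose and 18S therefore cannot be well separated there, and a lost call does not decide between them.

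**Figure D4:**
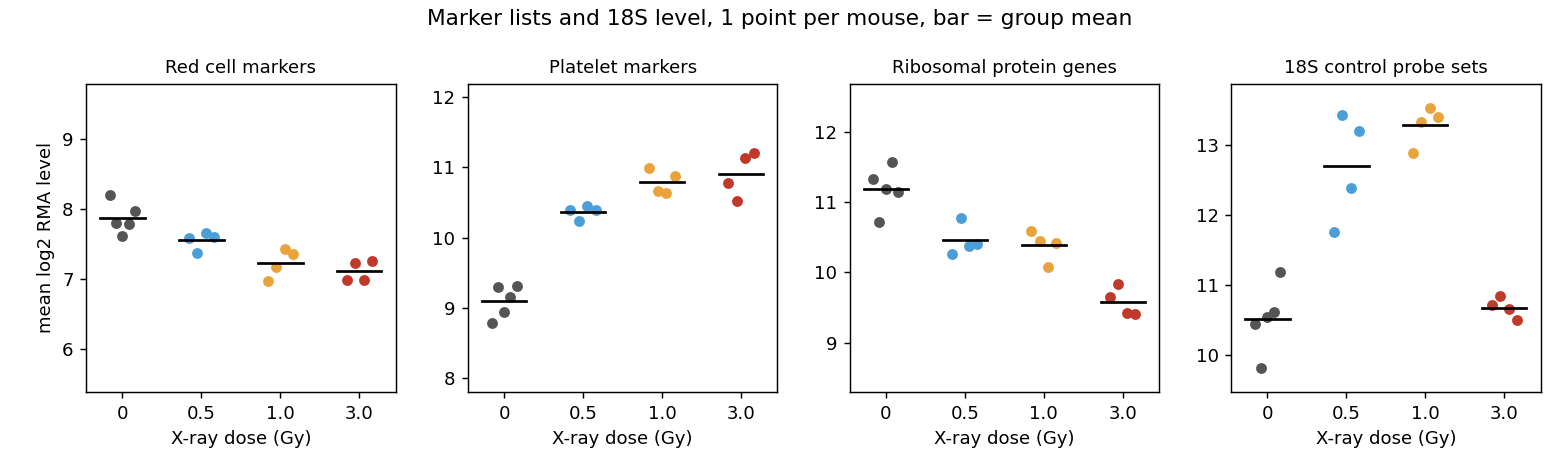
Mean log2 level per mouse (vertical axis) of marker lists and of the 18S control probe sets by X-ray dose in Gy (horizontal axis), with a bar at each group mean. Red cell markers descend from 7.87 in controls to 7.11 at 3.0 Gy, platelet markers are higher at every dose, and 18S is high at 0.5 and 1.0 Gy only.

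The genes whose centred values over the 17 arrays lay closest to a member's, by root-mean-square distance in log2 units, were taken for the 3 members with the smallest F-test p. For Prdx2 they were Blvrb (0.190), Hscb (0.194) and Txnrd2 (0.226), where the median distance over all genes was 0.736. Txnrd2 was closest to Hscb (0.142), Blvrb (0.176) and Bola3 (0.218), with a median of 0.734. Gpx1 was closest to Mkrn1 (0.0766), Adipor1 (0.0936, an _x_at probe set, which can bind related transcripts) and Gabarapl2 (0.115), with a median of 0.440. At 0.5, 1.0 and 3.0 Gy Hscb changed by -0.93, -1.70 and -1.14, Bola3 by -0.67, -1.43 and -0.94 and Mkrn1 by -0.30, -0.76 and -0.77 (log2). The 0.5 Gy call of Mkrn1 was lost when control 1 or 5 or any of the 0.5 Gy mice was dropped (adjusted p from 0.0585 to 0.0853). With the mean of all probe sets per gene, Bola3 changed by -0.33 (adjusted p = 0.0528), -0.66 and -0.23 (0.0713) and Mkrn1 by -0.02 (0.954), -0.25 (0.0976) and -0.25, so only Bola3 at 1.0 Gy and Mkrn1 at 3.0 Gy were still called. With the 18S covariate the 0.5 Gy calls of Hscb (0.0577), Bola3 (0.118) and Mkrn1 (0.440) and the 1.0 Gy call of Mkrn1 (0.0607) were lost.

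Around these members, 108 other genes of redox metabolism were listed by role, of which 93 were tested. At 0.5 Gy 3 rose and 14 fell (18.3% of the 93), at 1.0 Gy 9 rose and 16 fell (26.9%), and at 3.0 Gy 25 rose and 37 fell (66.7%), beside 10.2%, 17.3% and 49.1% of all genes. With the 18S level as a covariate 0 rose and 4 fell at 0.5 Gy and 0 rose and 6 fell at 1.0 Gy. No rise at these 2 doses was still called, but dose and 18S cannot be well separated there. The 3.0 Gy counts, at a dose where 18S was near control, were still 25 and 37. When quantile normalization was repeated on the deposited values, the 3.0 Gy split was 31 higher and 31 lower, and that of all called genes went from 40.6% to 52.6% higher. The median change of the 93 genes was -0.10, -0.12 and -0.08. Leaving out single mice moved the falls at 0.5 Gy from 14 to 8 (control 4, or mouse 1 or 3 of that dose, dropped), 9 (control 1 or mouse 4 of that dose dropped) or 22 (control 2 dropped), and the rises from 3 to 1 (mouse 1 or 4 of that dose dropped). Without 1.0 Gy replicate 3 the falls at 1.0 Gy went from 16 to 10. Array weights gave 8 rises and 24 falls at 0.5 Gy, repeated quantile normalization gave 6 and 17 there and 7 and 25 at 1.0 Gy, median centring gave 3 and 9 at 0.5 Gy, and the mean of all probe sets per gene gave 1 and 15.

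Among 14 thioredoxin and glutaredoxin genes 0 rose and 2, 3 and 9 fell at the 3 doses, and with repeated quantile normalization 1 (Txndc17) rose and 6 fell at 3.0 Gy. On the deposited scale 14.3%, 21.4% and 64.3% of the list were called, beside 10.2%, 17.3% and 49.1% of all genes. Glrx5, the mitochondrial glutaredoxin of iron-sulfur cluster assembly, fell, with changes of -0.73, -1.65 and -1.96. Txnl1, a thioredoxin-like protein of the cytosol, changed by -0.41, -0.37 and -1.43, and Txndc5 and Txndc9 by -0.68 and -0.76 at 3.0 Gy, with calls at 3.0 Gy only. Neither of the other peroxiredoxins tested, Prdx3 and Prdx4, was called against control, though both were called higher at 3.0 Gy with repeated quantile normalization. Prdx4, the peroxiredoxin of the endoplasmic reticulum, changed by -0.49 (adjusted p = 0.117), -0.14 (0.687) and 0.26 (0.262).

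Of 25 other glutathione genes, 0, 3 and 9 rose and 5, 6 and 8 fell (20%, 36% and 68% called, beside 10.2%, 17.3% and 49.1% of all genes). Glo1 and Hagh, the pair of glyoxalases that clear methylglyoxal with glutathione, fell by 0.63, 1.51 and 1.99 and by 0.74, 1.65 and 1.63, and Mgst3, a microsomal glutathione transferase, fell by 0.82, 1.19 and 1.05. Gpx4, which reduces lipid peroxides, changed by 0.26 (adjusted p = 0.245) at 0.5 Gy and rose by 0.56 and 1.01 at the higher doses, opposite to Gpx1 (its probe set is of the _x_at type).

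The 10 superoxide, methionine sulfoxide and quinone enzymes had 2, 2 and 5 rises and 1, 2 and 2 falls (30%, 40% and 70% called, beside 10.2%, 17.3% and 49.1% of all genes). Pon2, a paraoxonase of intracellular membranes, rose by 0.55, 1.07 and 1.41, and Nqo2, a quinone reductase, by 0.38, 0.47 and 0.69. Ccs, the copper chaperone of Sod1, fell by 0.39, 0.47 and 0.40, and Park7 fell by 1.06 at 3.0 Gy. The 5 heme and iron genes had 1 fall at each lower dose, of Blvrb, a biliverdin reductase and flavin reductase (-1.14, -1.56 and -1.005). At 3.0 Gy 2 rose, Fth1, the ferritin heavy chain (0.39), and Slc40a1, the iron exporter ferroportin (1.03), and 3 fell. Of the heme and iron genes, 20%, 20% and 100% were called at the 3 doses, beside the same shares of all genes. The 3.0 Gy share rests in part on Hmox2 (-0.40, adjusted p = 0.0474) and Blvra (-0.32, adjusted p = 0.0491). Their calls were lost in 15 and 16 of 28 other settings, and neither gene passed the F test (adjusted p = 0.121 and 0.134).

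The 11 genes of NRF2 and its regulators had 1, 3 and 3 rises and 0, 0 and 3 falls (9.09%, 27.3% and 54.5% called, beside 10.2%, 17.3% and 49.1% of all genes). Nfe2l2, the gene of NRF2 itself, changed by 0.40 (adjusted p = 0.0804) at 0.5 Gy and rose by 0.61 (0.00424) and 0.44 (0.0137) at 1.0 and 3.0 Gy. Mafg, a small Maf partner of NRF2, rose by 0.39, 0.37 and 0.83. Keap1 and Cul3, which target NRF2 for degradation, fell by 0.58 and 0.45 at 3.0 Gy. Bach2, a repressor expressed in B cells, fell by 2.98 at that dose, where 10 of 11 B cell markers fell, beside 29.2% of all genes. The 10 genes of NADPH supply had 0, 1 and 2 rises and 1, 0 and 4 falls (10%, 10% and 60% called, beside the same shares of all genes). Taldo1, a transaldolase, rose by 0.61 and 1.12 at the higher doses, while Pgls fell by 0.70 and 1.29 at 0.5 and 3.0 Gy and Me2 and Nnt fell by 1.16 and 0.68 at 3.0 Gy. Of 16 genes of selenoprotein synthesis and other selenoproteins, 0, 0 and 4 rose and 4, 4 and 8 fell (25%, 25% and 75% called, beside the same shares of all genes). Selenos fell by 0.67 at 0.5 Gy and 1.67 at 3.0 Gy, Selenoh by 0.85, 0.54 and 1.28, Selenok by 0.58, 0.99 and 0.44, and Selenoo by 0.86 at 3.0 Gy. The Selenos probe set is of the _s_at type, and the probe set used without such types changed by -0.32 at 0.5 Gy (adjusted p = 0.0971) and -0.37 at 3.0 Gy.

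Some of these calls rested on single mice. At 0.5 Gy, Nqo2 lost its call when replicate 1 or 3 of that dose was left out (adjusted p = 0.0572 and 0.0616), Pon2 and Ccs with replicate 4 left out (0.0505 and 0.0546), and Mafg with replicate 1 or 4 left out (0.0894 and 0.0526). Pgls at 0.5 Gy lost it when control 1 or 4 or irradiated mouse 1 or 3 was dropped (from 0.0505 to 0.0759), and Selenos when control 1, 3 or 4 or irradiated mouse 1, 3 or 4 was dropped (from 0.0754 to 0.133). At 1.0 Gy, Mafg lost it with replicate 1 or 4 left out (0.0502 and 0.0639) and Selenoh with control 4 or irradiated mouse 3 dropped (0.0659 and 0.0734). At 3.0 Gy, Cul3 lost it when control 1 or 4 or irradiated mouse 1, 2 or 4 was dropped (from 0.0526 to 0.0919), and Selenok when control 4 or irradiated mouse 2 was dropped (0.0506 and 0.0721). With repeated quantile normalization the calls of Glrx5 at 0.5 Gy (0.0576), Mafg at 1.0 Gy (0.0543), and Ccs (0.183) and Cul3 (0.130) at 3.0 Gy were lost. With the mean of all probe sets per gene those of Nqo2 (0.19, adjusted p = 0.0870) and Pon2 (0.25, 0.0865) at 0.5 Gy were lost, and values came out over 1.5 times smaller for Mgst3 at every dose (-0.46, -0.71 and -0.46), Glo1 at 1.0 and 3.0 Gy (-0.65 and -0.82), Pon2 (0.52 and 0.74) and Nqo2 (0.29 and 0.43) at those doses, and Txnl1 (-0.48), Txndc9 (-0.48) and Me2 (-0.71) at 3.0 Gy. Txndc5 at 3.0 Gy came out larger (-1.34).

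**Figure D5:**
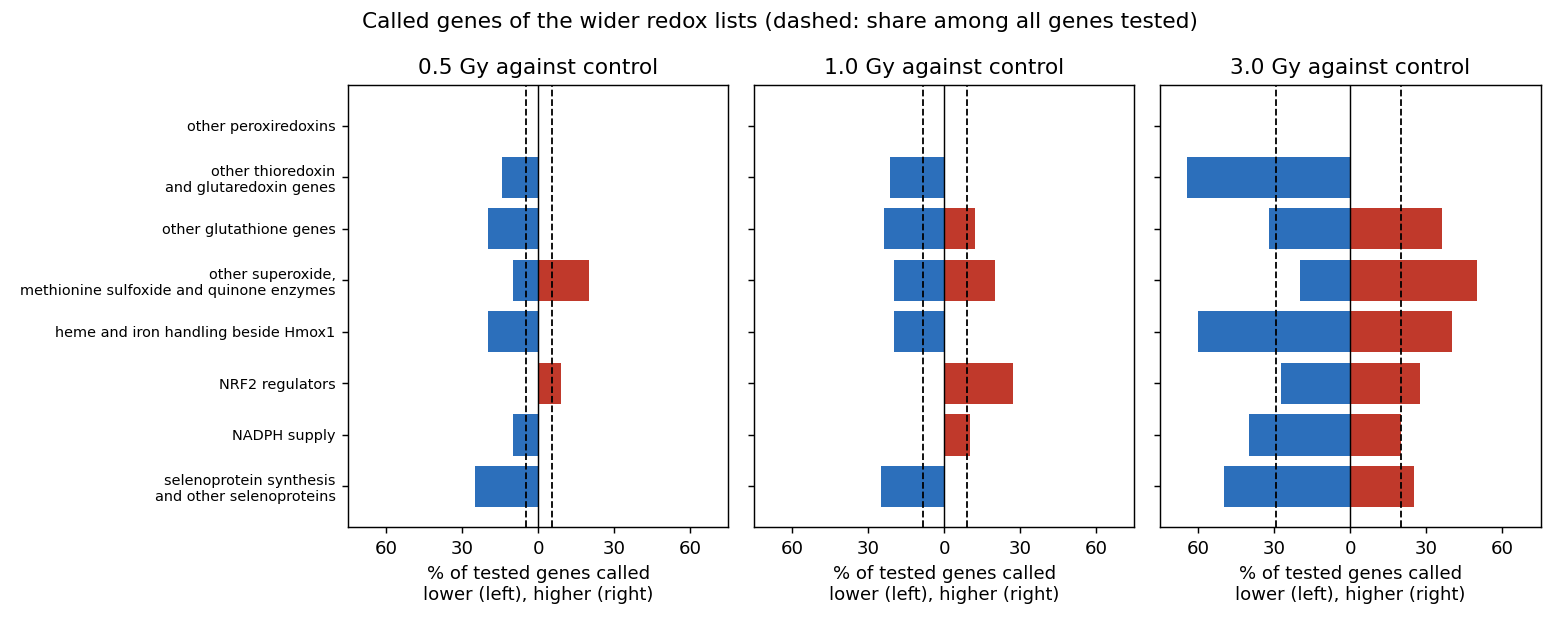
Share of tested genes in each wider redox list (vertical axis) called higher (to the right) or lower (to the left) than control at 0.5, 1.0 and 3.0 Gy, in percent (horizontal axis), with dashed lines at the share of all 12696 genes. On the deposited scale thioredoxin and glutaredoxin genes show 0 rises and 2, 3 and 9 falls of 14 (1 rise and 6 falls at 3.0 Gy with repeated quantile normalization), and the glutathione genes have both directions at 1.0 and 3.0 Gy.

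Of all 12696 genes, limma called 2 between 1.0 and 0.5 Gy, Glrx5 and Hagh, and both belong to these redox lists. They were singled out after their values were seen, and the lists were chosen with earlier results of these data known. That both genes belong to the lists is therefore no test of the lists. Glrx5 read 11.10, 10.82, 11.15 and 10.94 at 0.5 Gy and 10.004, 10.04, 10.27 and 10.03 at 1.0 Gy, a difference of -0.92 with an adjusted p of 0.0129. Hagh read 9.81, 9.51, 9.91 and 9.70 at 0.5 Gy and 8.77, 8.65, 9.11 and 8.75 at 1.0 Gy, a difference of -0.91 with an adjusted p of 0.0194. In both genes all 1.0 Gy mice were below all 0.5 Gy mice. No gene was called without 0.5 Gy replicate 1, 3 or 4 or without 1.0 Gy replicate 1, 2 or 4, and 42 were called without 1.0 Gy replicate 3. The count was 0 with a robust trended variance, 25 with repeated quantile normalization and 199 with array weights.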

How the data were processed

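Whole-blood RNA of 17 mice was hybridised to 1 Affymetrix array each. Values of 45101 probe sets are on a log2 scale as deposited by the authors. RMA, named with R version 3.3.2 in the submitters' processing notes, corrects background, makes the arrays alike in distribution and summarises probes. Its settings: not given in the sources used here. A shift of most genes in one direction would be partly removed, and changes of dim probe sets are understated.

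In the platform annotation, 34945 probe sets carried 1 symbol, 932 several, 9160 none and 64 were controls. A gene was kept when its probe set exceeded its array's 50th percentile in at least 4 arrays. Deposited values were tested with limma 3.58.1 (lmFit, eBayes) in R 4.3.3, as 4 group means over all arrays, two-sided, with Benjamini-Hochberg adjustment over 12696 genes and calls at an adjusted p under 0.05. Folds are 2 to the power of log2 differences. Code was tested on simulated data. For arrays, the number of mice limits the precision.

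The members and lists were chosen with earlier results of these data known. Named beside the 10 members were their other single-symbol probe sets, per list up to 4 genes with the smallest F-test p among those called, and the 3 nearest genes of the 3 members with the smallest F-test p. Alternatives changed the filter, probe set rule, scaling, variance model, weights, groups fitted, replicate block, 18S covariate and each replicate.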

Additional observations from a re-analysis of the deposited data

Results flagged for a closer look

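Control probe sets for 18S ribosomal RNA, which entered the comparisons of genes only as a covariate in an alternative fit, were higher than in control blood by 2.17 at 0.5 Gy and 2.76 at 1.0 Gy (log2). In both cases all 4 irradiated mice were above all 5 controls (two-sided exact permutation p = 0.00794, the smallest that 126 regroupings can give). At 3.0 Gy the difference was 0.157 (exact permutation p = 0.587). A Dixon outlier check, on the gap beside an extreme value over the range, flagged 0 of 36 sets of replicate values of the 9 genes. With 4 or 5 mice per set it can miss a distant value. Srxn1 in 3.0 Gy replicate 2 read 8.04, beside 9.06, 9.54 and 9.43 in the others, and was not flagged.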

How the results depend on the processing

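Over 28 other settings, 1440 of 1512 member values kept their direction and their side of the threshold, 33 lost a call, 13 gained one and 26 changed sign, all of them for comparisons that were not called. The number of called members moved by over 1.5 times, or from 0, with the mean of all probe sets per gene (2 between 3.0 and 1.0 Gy), repeated quantile normalization (1 between 1.0 and 0.5 Gy), array weights (4 between 1.0 and 0.5 Gy) and the 18S covariate (2 at 0.5 Gy, 3 at 1.0 Gy, and 0 between 3.0 Gy and either other dose). That covariate fit called 0 of all genes between 3.0 and 1.0 Gy and 95 between 3.0 and 0.5 Gy. With 1 replicate left out the number of called members was 3 to 5 at 0.5 Gy, 5 at 1.0 Gy, 7 at 3.0 Gy, 0 between 1.0 and 0.5 Gy, 4 to 6 between 3.0 and 1.0 Gy, 4 to 6 between 3.0 and 0.5 Gy, and 7 to 8 by the F test. At 0.5 Gy, 3 were called without control replicate 1 or 0.5 Gy replicate 1, 3 or 4. The cause was not tested.

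Signs changed with the mean of probe sets for Txnrd1 at 0.5 Gy (0.0159), Gclm (0.392, 0.371 and 0.263 at the 3 doses), Txnrd2 between 3.0 and 0.5 Gy (-0.142) and Txnl4a at 3.0 Gy (0.00802), and without _x_at and _s_at sets for Sephs1 at 3.0 Gy (0.0568). They changed with repeated quantile normalization between 3.0 and 1.0 Gy for Gclm (0.0230) and Sod2 (0.0353), and with array weights for Gclm at 1.0 Gy (0.0572), between 1.0 and 0.5 Gy (0.0748) and between 3.0 and 0.5 Gy (0.000700). With the 18S covariate they changed for Gclm at 0.5 Gy (0.500), 1.0 Gy (0.622) and between these (0.122), Cat at 1.0 Gy (0.0306) and Prdx2 between 3.0 and 0.5 Gy (0.0927). With 1 replicate left out the difference ranged, for Gclm, from -0.176 to 0.1004 between 1.0 and 0.5 Gy, from -0.195 to 0.105 between 3.0 and 0.5 Gy and from -0.175 to 0.154 between 3.0 and 1.0 Gy. It ranged from -0.0316 to 0.146 for Txnrd2 between 3.0 and 0.5 Gy and from -0.0787 to 0.237 for Txnrd1 at 1.0 Gy. Txnl4a and Sephs1 had been called lower at 3.0 Gy.

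The labels name no pairing of same-numbered mice, and the main fit used none. Deviations of same-numbered mice of different groups correlated from -0.454 to 0.495, with a median of 0.067. The median was -0.025 for mice of different number and group. Of 17 arrays, 7 correlated best with their own number, and the number that would do so without any link was not worked out. With the replicate block, 4, 5 and 7 members were called at 0.5, 1.0 and 3.0 Gy, 0, 5 and 5 between doses and 7 by the F test. Leaving out replicates for the second Gclm probe set was added after seeing the data. No background signal was used here, so how far Txnrd1 and Hmox1, the dimmer sets, exceed it is unknown.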
